A study of Mus musculus with 46 samples.

Results

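The genes described here are 10 hematopoietic transcription factor genes of the mouse: Runx1, Gata2, Gfi1b, Tal1, Spi1, Fli1, Lyl1, Erg, Lmo2 and Myb. They were chosen by name, not by a rule on measured values, but with earlier results of these data known. All 10 were found among 22238 protein-coding genes of GENCODE vM1 on genome build mm9 (Spi1 under its older symbol Sfpi1). For each gene, the peaks overlapping its window, from 1 kb before the gene to 1 kb after it, were collected from every deposited ChIP-Seq peak list.

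The histone variant H3.3 was profiled while mouse embryonic fibroblasts (MEFs) were turned towards hematopoietic progenitors or towards induced pluripotent stem cells (iPSCs). The MEFs came from embryos carrying an Oct4 IRES-EGFP reporter. For transdifferentiation, MEFs were sorted free of cells with hematopoietic surface markers, infected with pMX retroviruses carrying Scl (Tal1), Lmo2, Runx1 and Bmi1 (SLBR), and grown with cytokines on a layer of inactivated OP9 stromal cells. Its H3.3 libraries were MEF (day 0), D4 (day 4 of SLBR induction), and fully transdifferentiated cells sorted as cKit+ or cKit-. For reprogramming, MEFs received Oct4, Sox2, Klf4 and c-Myc from pMXs retroviruses. D0, D3, the Thy-1 negative fractions D6T- and D9T-, the SSEA-1 positive fractions D12S+ and D16S+, and iPSCs formed the successful route, profiled for H3.3, H3 trimethylated at lysine 4 (H3K4me3) and H3 trimethylated at lysine 36 (H3K36me3). The fractions D6T+, D9T+, D12S- and D16S- left that route, and ESD3 is an embryonic stem cell line, and these had H3.3 only. The fibroblasts were profiled separately in both systems, as MEF and as D0. Each group had 1 library, so no difference could be set against a spread between replicates and no test was possible. Ranges in parentheses are exact 95% intervals from the tag counts and cover counting error only.

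Blood progenitors are specified by a small group of transcription factors that act together at shared enhancers. Tal1 and Lyl1 are basic helix-loop-helix proteins that work with the bridging protein Lmo2 and with GATA factors, of which Gata2 serves stem and progenitor cells. Runx1 is the core-binding factor required for blood to emerge from endothelium. Fli1, Erg and Spi1 (PU.1) are Ets factors, Gfi1b is a zinc-finger repressor of erythroid and megakaryocytic cells, and Myb is required for definitive progenitors to expand. H3.3 is placed on chromatin independently of DNA replication, at promoters, enhancers and transcribed gene bodies. H3K4me3 marks promoters and H3K36me3 the bodies of transcribed genes.

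Promoter sequences of RefSeq, from build GRCm38.p6, were held for 7 of the 10 genes, in 12 promoters. Each of the 12 matched exactly once on the mm9 chromosomes that carry these genes, and the coordinates given are those of the mm9 match. The 5 shown carry the comparisons that follow. Runx1 has a distal and a proximal start with unlike marks, Myb had its own highest H3.3 score in cKit-, Tal1 was a delivered factor with a peak at its own start, and Gfi1b had no H3.3 peak at its start in any library. Each is the 250 bases before the start, 5′ to 3′. Capitals mark matches, on either strand, to the letters AGATAA or its variant TGATAA for GATA factors, TGTGGT for Runx factors, CAGCTG or the related CAGATG for E-box proteins, and CCGGAA or the related AGGAAG for Ets factors.
Runx1 distal (chr16:92826320-92826569, minus strand): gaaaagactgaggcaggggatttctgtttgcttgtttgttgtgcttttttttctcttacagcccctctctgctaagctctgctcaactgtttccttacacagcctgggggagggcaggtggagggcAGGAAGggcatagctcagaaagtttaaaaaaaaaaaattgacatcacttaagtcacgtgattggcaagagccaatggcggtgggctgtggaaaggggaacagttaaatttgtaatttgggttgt
Runx1 proximal (chr16:92697575-92697824, minus strand): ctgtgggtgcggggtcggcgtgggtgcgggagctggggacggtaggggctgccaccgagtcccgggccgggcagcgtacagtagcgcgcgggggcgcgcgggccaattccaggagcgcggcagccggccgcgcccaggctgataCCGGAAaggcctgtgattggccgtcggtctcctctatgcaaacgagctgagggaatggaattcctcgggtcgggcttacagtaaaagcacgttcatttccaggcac
Myb (chr10:20880791-20881040, minus strand): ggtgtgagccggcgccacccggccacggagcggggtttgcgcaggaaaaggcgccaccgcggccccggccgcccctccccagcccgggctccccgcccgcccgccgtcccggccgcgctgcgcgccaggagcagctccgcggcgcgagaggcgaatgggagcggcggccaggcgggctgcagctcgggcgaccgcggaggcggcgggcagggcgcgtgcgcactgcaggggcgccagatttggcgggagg
Tal1 (chr4:114728781-114729030, plus strand): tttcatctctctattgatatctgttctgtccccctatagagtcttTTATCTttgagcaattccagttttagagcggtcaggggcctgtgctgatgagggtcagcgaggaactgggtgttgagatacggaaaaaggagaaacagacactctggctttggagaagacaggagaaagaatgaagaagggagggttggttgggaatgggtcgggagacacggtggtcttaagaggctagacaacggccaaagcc
Gfi1b (chr2:28477503-28477752, minus strand): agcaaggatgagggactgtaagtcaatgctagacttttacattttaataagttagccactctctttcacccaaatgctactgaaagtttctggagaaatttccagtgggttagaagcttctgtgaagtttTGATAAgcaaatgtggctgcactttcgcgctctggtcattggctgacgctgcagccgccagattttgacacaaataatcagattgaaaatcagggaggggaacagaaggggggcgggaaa

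At least 1 of these letter strings lay in 6 of the 12 member promoters, and in 67.3% of all 32851 RefSeq promoters of the same length. Of the 5 shown, the distal Runx1 promoter held AGGAAG, the proximal one CCGGAA, Tal1 held AGATAA and Gfi1b held TGATAA, while Myb held none. The promoters differed widely in base composition. The Myb promoter had 81.2% G and C with 40 CpG dinucleotides, and the proximal Runx1 promoter 67.6% with 27. The distal Runx1 promoter had 45.6% with 2, below the median of 52.4% and 6 over all promoters.

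The libraries differed strongly in how much they called, and this bears on every value below. In transdifferentiation the depth was 46.7 to 91.8 M mapped tags (M, mega), and in reprogramming 13.2 to 41.2 M. Peaks numbered 52862 in MEF, 108179 in D4, 28076 in cKit+ and 25637 in cKit-, and held 7.64%, 37.2%, 1.65% and 2.31% of the tags. Scores below are normalized tag counts per 10 M tags of a library, summed over the peaks of a gene. From MEF to D4 the median log2 change of genes with peaks in both libraries was 2.61, from D4 to cKit+ it was -4.35 and from D4 to cKit- it was -3.80. Scores were also scaled in another way, each library divided by its own median score over the genes with peaks in both, which shifts log2 ratios by 2.84, -4.65 and -4.13. Under this median-score scaling the direction from MEF to D4 reversed at Runx1, Spi1, Fli1 and Lyl1. From D4 it reversed at Runx1, Tal1, Spi1, Fli1 and Lmo2 in both sorted fractions, at Myb in cKit+ and at Erg in cKit-, so higher and lower below refer to the deposited scale. Dividing by the median change itself, added after the data were seen, reversed the same directions. A lower score cannot tell fewer cells carrying H3.3 at a gene from less H3.3 per cell.

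H3.3 peaks were found at 7 of the 10 genes in MEF, where 53.3% of all genes had one, at 9 in D4 (72.1% of genes), at 7 in cKit+ (33.3%) and at 7 in cKit- (31.9%). The members were longer than most genes, with a median window of 30.6 kb against 17.4 kb. MEF lacked peaks at Gfi1b, Tal1 and Lmo2. Both sorted fractions lacked them at Gfi1b and Lyl1, cKit+ also at Erg and cKit- also at Gata2. A peak within 1 kb of a transcript start was present at 6 members in MEF (37.7% of genes), 8 in D4 (63.8%), 2 in cKit+ (12%) and 3 in cKit- (13.4%). Those in cKit+ were Tal1 and Lmo2, and those in cKit- were Runx1, Tal1 and Myb.

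**Figure D1:**
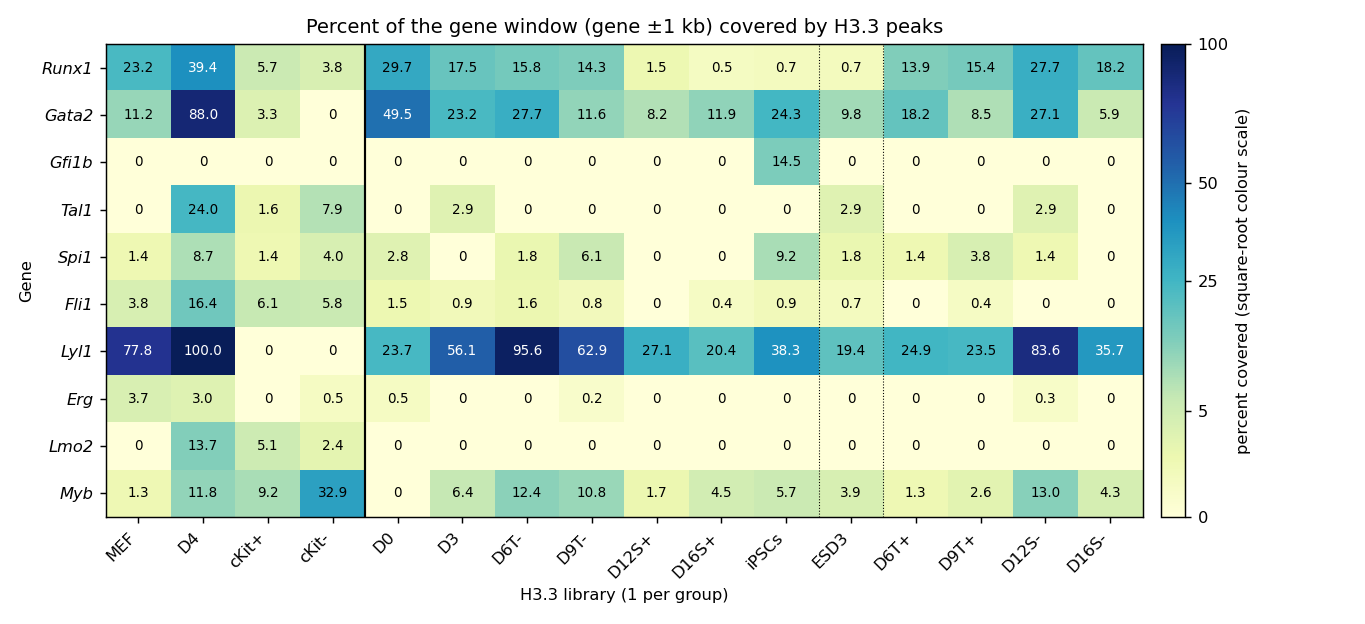
Percent of each gene's window (gene ±1 kb) covered by H3.3 peaks, for the 10 genes (rows) in 16 H3.3 libraries (columns), 1 library per group. Transdifferentiation stands left of the solid line, then the successful route, ESD3 between dotted lines, and the other sorted fractions. Lyl1 was covered over 100.0% in D4 and not at all in the cKit fractions, Myb was covered most in cKit- (32.9%), and Gfi1b was covered in iPSCs alone.

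Myb was the member that stood apart in the sorted cells. Its score was 6.21 (4.16 to 8.92) in MEF from 1 peak, 57.1 (51.4 to 63.3) in D4 from 2 peaks, 38.4 (34.5 to 42.6) in cKit+ from 6 peaks and 154 (144 to 165) in cKit- from 11 peaks. It was the only member 2-fold or more higher in cKit- than in D4, at 2.70-fold (2.38 to 3.06), and 0.931% of all genes were higher by that rule. In cKit+ it was 0.673 times (0.579 to 0.780) its D4 score, and 16.9 times under median-score scaling. Its covered share was 1.31% in MEF, 11.8% in D4, 9.18% in cKit+ and 32.9% in cKit-. These shares exceeded those of 53.1%, 46.7%, 94.3% and 99.3% of genes, so Myb was near the middle of all genes in D4 and near the top in cKit-. Against MEF, Myb was 6.18-fold (4.23 to 9.36) higher in cKit+ and 24.8-fold (17.1 to 37.3) higher in cKit-.

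The position of H3.3 along Myb (chr10:20844736-20880790, minus strand) also differed. In MEF the only peak lay just before the start, and in D4 a peak of 3.62 kb across the start carried 48.2 of the 57.1. In cKit- 5.72 lay within 1 kb of the start, and the other 10 peaks were spread over the gene to its 3′ end. Of the 12.5 kb covered in cKit-, 1.23 kb (9.84%) was covered in D4 too. All 11 peaks in cKit- had a fold over input of 2.03 to 2.62, close to the limit of 2 for a call, and none was kept when a fold of 3 was required. Both neighbours, looked up after the values of Myb were seen, were lower in cKit- than in D4 on the deposited scale. Hbs1l had 328 in D4 and 11.7 in cKit-, and Ahi1 had 132 and 45.6. The fall at Ahi1 was smaller than the median change of all genes. Under median-score scaling Ahi1, like Myb, was therefore higher in cKit- than in D4, and Hbs1l was still lower.

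**Figure D2:**
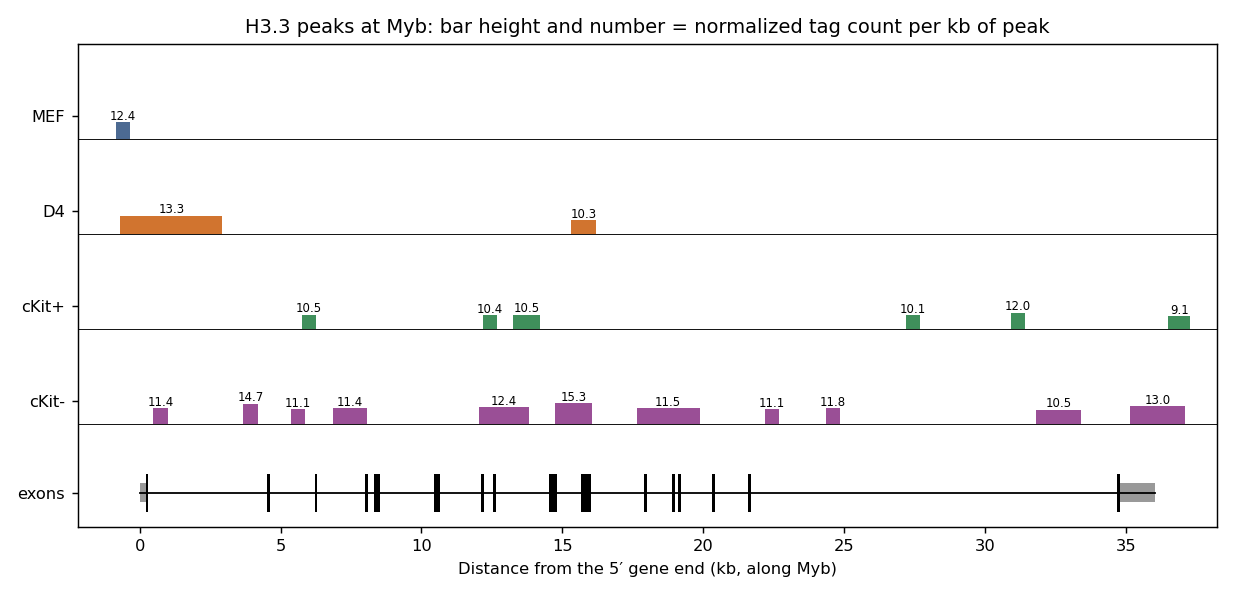
H3.3 peaks along Myb in the 4 transdifferentiation libraries, by distance in kb from the 5′ end of the gene, with exons at the bottom and their coding parts in black. Each bar is 1 peak, and its height and number give the normalized tag count per kb of peak. The MEF peak and the larger D4 peak sit at the start, while the 11 peaks of cKit- run along the whole gene at 10.5 to 15.3 per kb.

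Runx1 is a long gene with many peaks (chr16:92601712-92826311, minus strand). Its score was 687 (664 to 711) in MEF from 34 peaks, 1320.1 (1292 to 1349) in D4 from 29, 117 (110.4 to 124) in cKit+ from 20 and 115 (106 to 125) in cKit- from 13. D4 was thus 1.92-fold (1.84 to 2.00) above MEF, short of a 2-fold difference and below the median change of all genes, and 0.269 times MEF under median-score scaling. D4 was 11.3-fold (10.6 to 12.0) above cKit+ and 11.5-fold (10.6 to 12.5) above cKit-, also less than the median change. Peaks covered 23.2%, 39.4%, 5.66% and 3.78% of its window in MEF, D4, cKit+ and cKit-. Runx1 made up 70.7% of the summed member scores in MEF and 27.3% in cKit-.

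The sorted fractions had nearly equal sums at Runx1, at a ratio of 1.02 times (0.922 to 1.13), from called peaks that largely did not overlap. Their fold over input was 2.00 to 2.45 in cKit+ and 2.04 to 3.05 in cKit-, mostly close to the limit of 2 for a call. Low overlap between such calls does not show that H3.3 lay on separate pieces of the gene. Of 12.8 kb covered in cKit+ and 8.57 kb in cKit-, 0.905 kb was shared, 7.06% of the first and 10.6% of the second. MEF and D4 shared more, 40.0 kb, which was 76.2% of the MEF length and 44.8% of the D4 length.

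The distal and the proximal start of Runx1 carried unlike marks. At the distal start H3.3 was 24.7 in MEF, 177 in D4 and 10.7 in cKit-, with no peak in cKit+. At the proximal start, whose promoter is rich in CpG, a peak of 104 was present in D4 alone of the 4. In D0 the distal start had 63.4 of H3.3 and the proximal start 33.2, whereas H3K4me3 was 40.6 distal and 695 proximal. From D12S+ on, the distal start had no H3K4me3 peak, and the proximal start had 161 in D12S+, 20.6 in D16S+ and 81.8 in iPSCs.

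Tal1 and Lmo2 were delivered by retrovirus, Tal1 as the mouse gene and Lmo2 as the human one, and most of their D4 peaks lay on coding exons. Tal1 (chr4:114729031-114744360, plus strand) had no H3.3 peak in MEF, 112 (104 to 120.1) in D4, 6.05 (4.61 to 7.93) in cKit+ and 24.0 (20.0 to 28.7) in cKit-. In D4, 3 of its 4 peaks lay over exons 5, 6 and 7, which hold all its coding bases. They had 28.3, 13.0 and 52.0 tags per kb, against a median of 10.9 and a 99th percentile of 20.3 over all D4 peaks, and the peak at the start had 12.3. In cKit- 1 of its 2 peaks lay on exon 5, at 19.6 per kb. In cKit+ its single peak lay before the start.

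The input tags at the same exons were also dense. In D4 the input density of the peaks on exons 5, 6 and 7 of Tal1 was 1.62, 1.35 and 2.28 times the median of all D4 peaks, and that of the peak at the start was 0.936 times. In cKit- the exon 5 peak had 1.90 times the median. The part of the delivered cDNA in these peaks was not tested.

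Lmo2 (chr2:103798143-103822035, plus strand) had no H3.3 peak in MEF or in any of the 12 reprogramming libraries. Its score was 56.1 (50.5 to 62.3) in D4, 10.6 (8.57 to 12.9) in cKit+ and 8.14 (5.87 to 11.0) in cKit-. In D4 the peaks on exons 5 and 6 had 29.7 and 23.4 tags per kb with input at 1.25 and 1.84 times the median, and the peak over exons 2 and 3, at an internal start, had 9.89 per kb with input at 1.09 times. The only peak in cKit- was again on exon 6. The Lmo2 window also overlaps the gene 4931422A03Rik, and the tags of the pair cannot be told apart.

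The other delivered factors showed this in part. The D4 peak on exon 9 of Runx1, which holds coding bases, had 30.8 tags per kb and input at 1.71 times the median, against 8.74 per kb and 0.845 times for the MEF peak over coding bases of that exon. A MEF peak of Runx1 that overlaps no exon had input at 2.03 times the MEF median. The other D4 peaks on exon 9 held no coding bases and had input at 0.820 and 1.17 times, and the D4 peaks with coding bases on its other exons had 0.996 to 1.28 times. The other D4 peaks of Runx1 were below 20 per kb. Bmi1, a Polycomb protein, had 6.10 in MEF, 107 in D4, 4.2 in cKit+ and 13.9 in cKit-. Its D4 peaks with coding bases had 14.9 and 14.6 tags per kb, with input at 1.12 times the median in both. Without the peaks on coding bases of Tal1, Lmo2 and Runx1, a choice made after seeing the data, 8 members had a peak in D4 and 6 in cKit-.

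**Figure D3:**
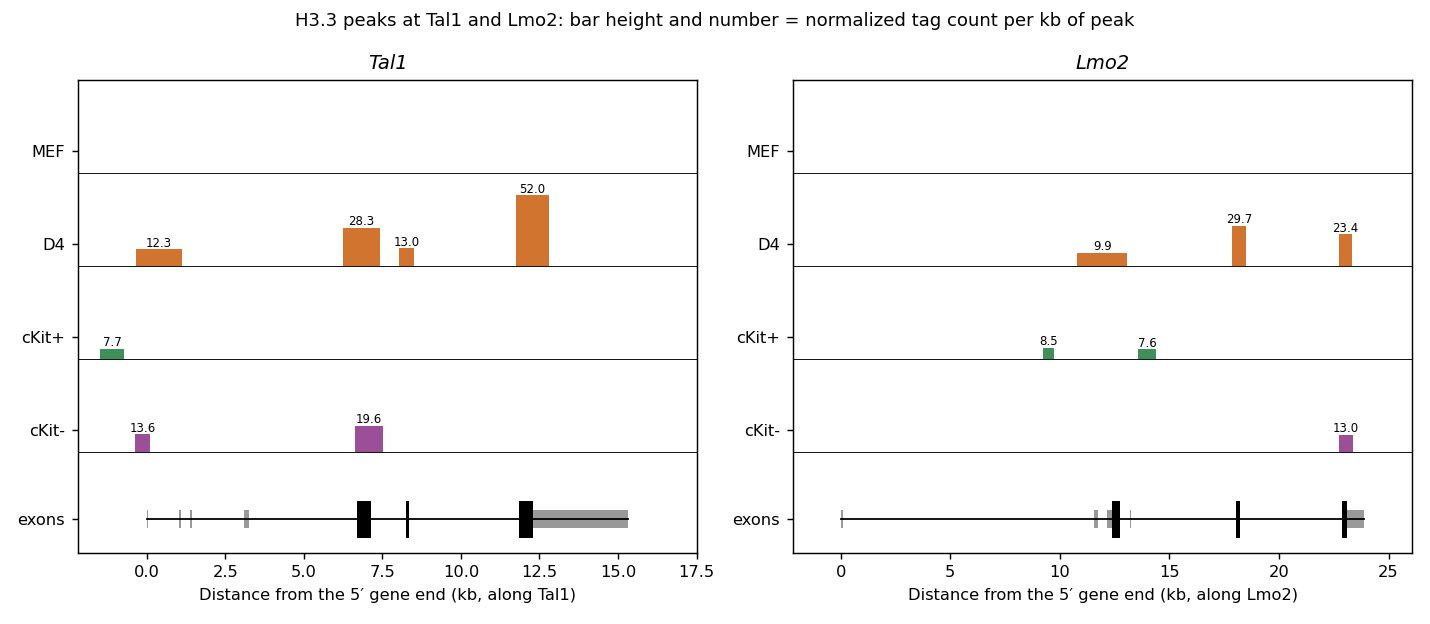
H3.3 peaks along Tal1 and Lmo2 in the 4 transdifferentiation libraries, by distance in kb from the 5′ end of each gene, with exons at the bottom and their coding parts in black. Bar height and number give the normalized tag count per kb of peak. MEF has no peak, and the highest bars, 52.0 and 28.3 in Tal1 and 29.7 and 23.4 in Lmo2, are D4 peaks over coding exons.

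Gata2 (chr6:88143885-88157024, plus strand) had 23.6 (19.4 to 28.4) in MEF, 191 (180.1 to 202) in D4 and 3.98 (2.84 to 5.56) in cKit+, and no peak in cKit-. In D4 its peaks covered 88.0% of the window, more than in 90.0% of genes, and in cKit+ 1 peak of 0.5 kb was present. D4 was 8.06-fold (6.65 to 9.93) above MEF and 47.9-fold (34.1 to 67.5) above cKit+. Under median-score scaling both directions held, but neither difference reached 2-fold.

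Lyl1 (chr8:87225356-87228614, plus strand), a relative of Tal1, had 93.7 (85.2 to 103) in MEF and 547 (529 to 565) in D4, and no peak in either cKit fraction. The D4 value came from 1 peak of 36.8 kb that ran far beyond the 5.26 kb window of this short gene. The window overlaps that of Nfix, a nuclear factor I gene, and the tags of the pair cannot be told apart. When only peaks with their midpoint in the window were kept, Lyl1 had no peak in D4.

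The Ets factors differed in the order of the libraries. Fli1 (chr9:32229793-32348974, minus strand) had 52.4 (46.1 to 59.5) in MEF, 256 (244 to 269) in D4, 66.4 (61.3 to 72.0) in cKit+ and 86.8 (79.0 to 95.3) in cKit-. Runx1 and Fli1 were the members with 10 or more peaks in both sorted fractions, and Fli1 had 12 in cKit+ and 10 in cKit-. Its covered share there, 6.12% and 5.81%, exceeded that of 90.0% and 90.2% of genes. Erg (chr16:95580776-95808200, minus strand) had 103 (93.8 to 112) in MEF, 80.3 (73.5 to 87.6) in D4, no peak in cKit+ and 13.3 (10.4 to 16.9) in cKit-. It was the only member with a peak in MEF whose score was lower in D4, at 0.782 times (0.689 to 0.887), but with peaks of fold 3 or more over input alone the ratio was 4.42. Spi1 (chr2:90922547-90955913, plus strand), a regulator of myeloid and B cells, had 6.00 (3.98 to 8.67) in MEF, 27.9 (23.8 to 32.2) in D4, 4.74 (3.39 to 6.31) in cKit+ and 19.5 (15.8 to 23.6) in cKit-. None of its peaks in these libraries lay within 1 kb of a start.

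By a 2-fold rule, in which a gene without a peak is lower than any gene with one, 7 of the 10 members were higher in D4 than in MEF (69.5% of genes) and none was lower (0.962%). From D4 to cKit+, 8 were lower (71.6% of genes) and none higher (0.522%). From D4 to cKit-, 7 were lower (70.7% of genes) and Myb was higher. Apart from Myb in cKit-, where 0.931% of genes were higher, the counts of members were near the background in these 3 comparisons. Under median-score scaling, 2 members were higher (28% of genes) and 2 lower (12.8%) in D4 than in MEF. The 2 higher were the delivered factors Tal1 and Lmo2, which had no peak in MEF, so no scaling can change their call. From D4, 5 were then higher (10.8% of genes) and 2 lower (45.1%) in cKit+, and 6 were higher (10.9%) and 2 lower (47.4%) in cKit-.

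Between other pairs the members divided. Against MEF, Tal1, Lmo2 and Myb were higher in cKit+ (6.04% of genes), and Tal1, Spi1, Lmo2 and Myb in cKit- (7.9% of genes). Tal1 and Lmo2 in these counts are delivered factors. In cKit+ no peak of either overlapped an exon. The single Tal1 peak there lay before the gene, with 0.285 of its 0.782 kb inside the window. Runx1, Gata2, Lyl1 and Erg were lower in cKit+ (43.3% of genes) and in cKit- (41.3%). Gata2 was higher in cKit+ than in cKit- (12.7% of genes), and Tal1, Spi1, Erg and Myb were lower (15.3%). For Myb, cKit- was 4.01-fold (3.54 to 4.57) above cKit+.

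**Figure D4:**
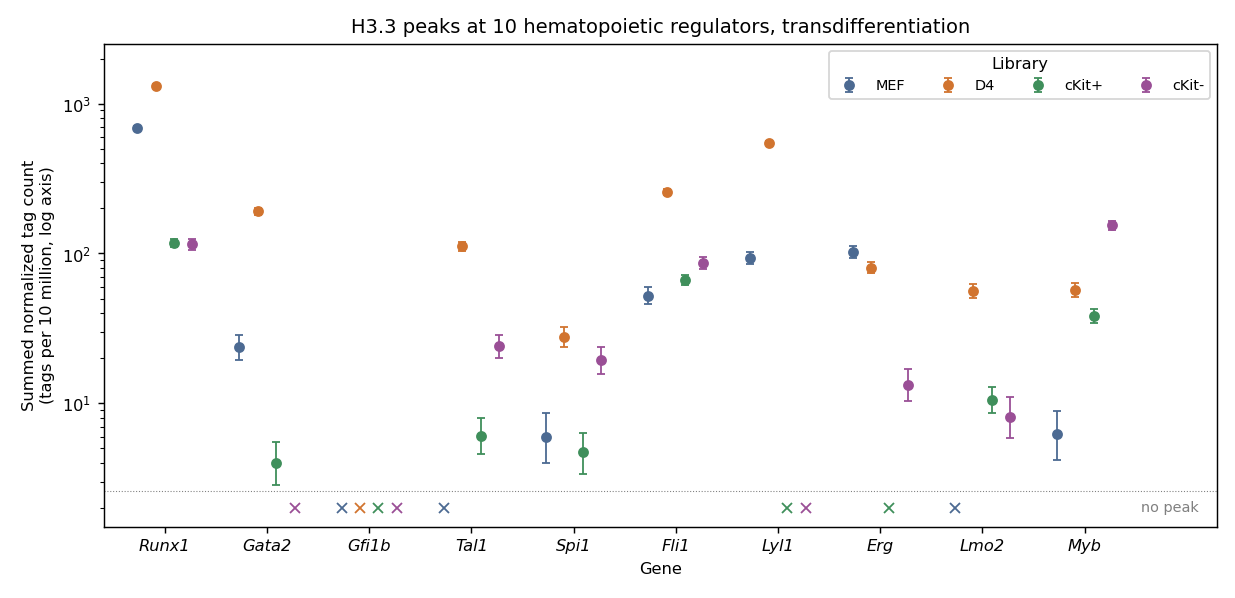
Summed H3.3 score of each gene (normalized tags per 10 M, log axis) in MEF, D4, cKit+ and cKit-, 1 library each. Bars are exact 95% Poisson intervals, and crosses mark genes with no peak. On this deposited scale D4 is the highest point at 7 genes, cKit- at Myb (154) and MEF at Erg (103), and Gfi1b has no peak.

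Of 25 matched partners and further regulators of blood, 24 were higher in D4 than in MEF on the deposited scale and none was lower, where 69.5% of all genes were higher. In cKit-, 22 were lower than in D4 (70.7% of genes) and 1 was higher (0.931%). That gene, Ikzf1, encodes the lymphoid regulator Ikaros and was named after its values were seen: it had no peak in MEF, 6.28 in D4, 4.14 in cKit+ and 73.9 in cKit- from 7 peaks. The highest D4 sums of the list were those of Etv6 (2781), Zfpm1 (1839), Ets1 (1386) and Runx2 (1222), all lower in both sorted fractions.

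Blood markers were read against the share of all genes with a peak, which was 53.3% in MEF, 72.1% in D4, 33.3% in cKit+ and 31.9% in cKit-. Of 12 blood progenitor markers, 6 had a peak in MEF, 9 in D4, 2 in cKit+ and 5 in cKit-. From D4 to cKit-, 7 of them were lower and 2 higher, and from D4 to cKit+ 8 were lower and none higher. Kit, the receptor used for the sort and named after its values were seen, had 43.0 in D4 and no peak in the other 3. Among the lower ones Itga2b, the megakaryocyte integrin CD41, had 69.3 in MEF, 182 in D4 and 5.62 in cKit-. The 2 higher in cKit- were Ptprc, the leukocyte phosphatase CD45, with 6.20 in D4 and 45.4 in cKit-, and Vav1, a signal transducer of blood cells, with 6.12 and 15.6. Neither had a peak in MEF or cKit+. Of 9 mature myeloid markers, 4 had a peak in MEF, 5 in D4, 6 in cKit+ and 5 in cKit-. From D4 to cKit-, 4 of the 9 were lower and 2 higher, and from D4 to cKit+ 5 were lower and 1 higher. Cd68, a lysosomal protein of macrophages, had 231 in MEF, 834 in D4, 29.4 in cKit+ and 79.2 in cKit-. The D4 value of Cd68 came from 1 peak of 40.1 kb, counted in full, that ran far beyond its window of 3.94 kb. The higher ones had no peak in D4 and were Mpo (16.5) and Elane (9.99), granule proteins of neutrophil precursors, in cKit-, and Lyz2 (5.94) in cKit+. These calls rest on little: 3 peaks over 1.67 kb at Mpo, 1 of 0.893 kb at Elane and 1 of 0.5 kb at Lyz2. Elane also had a peak of 7.05 in D0 and Mpo one of 6.32 in iPSCs, while Lyz2 had none in either. None of 8 erythroid genes had a peak in any of the 4.

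Markers of other cells were read against the same shares of all genes. All 14 fibroblast markers had peaks in MEF and D4, with median scores of 242 and 583, and 8 had one in cKit+ and 10 in cKit-, with medians of 11.4 and 6.84. Of 10 endothelial genes, 7 had peaks in MEF, 8 in D4, 1 in cKit+ and 2 in cKit-. Of 7 genes of stromal feeder cells, 4, 6, 3 and 3 had them, near those shares, and of 8 pluripotency genes 2, 4, 0 and 0. Their part in the member values was not tested.

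On the way to iPSCs, Runx1 had much less H3.3 from day 12 on. Its score was 1025 in the starting cells, 532 at D3, 491 for D6T-, 432 for D9T-, then 46.5 for D12S+ and 19.2 for D16S+, and iPSCs had 17.1. D0 was 59.8-fold (46.9 to 76.3) above iPSCs, while the median log2 change of all genes was -0.53. In the fractions that left the route Runx1 kept scores of 488 for D6T+, 516 for D9T+, 921 for D12S- and 621 for D16S-. The difference between fractions of the same day was small at days 6 and 9 and large later: D12S- was 19.8-fold (16.2 to 24.2) above D12S+, and D16S- 32.3-fold (23.3 to 46.4) above D16S+. The median log2 change of genes with peaks in both was -1.74 from D12S- to D12S+ and -1.44 from D16S- to D16S+. D16S- held 65454 H3.3 peaks and D16S+ 34062. Runx1 was the only member lower in D16S+ (42.4% of genes), and Fli1 the only one higher (5.94%). The call at Fli1 rests on 1 peak of 0.5 kb in D16S+, at 6.67 from 13 tags, and no peak in D16S-.

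Myb was higher in the Thy-1 negative than in the Thy-1 positive cells, at 68.8 against 6.98 on day 6 and 54.8 against 14.0 on day 9. It was 1 of 3 members higher in D6T- (33.4% of genes) and 1 of 2 in D9T- (17.6% of genes), while none was lower in either (5.26% and 8.02% of genes). On day 12 the order was the opposite, with 9.11 in D12S+ and 76.6 in D12S-, and 7 members were lower in D12S+ (52.7% of genes) and none higher (2.44%). The libraries differed in the same direction, with 45922 H3.3 peaks in D12S+ and 87536 in D12S-, and the part of this in the member values was not tested.

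From D0 to iPSCs, Runx1, Gata2, Fli1 and Erg had less H3.3 (29.4% of genes) and Gfi1b, Spi1 and Myb more (17.4% of genes). Gfi1b (chr2:28464970-28477502, minus strand) had its only H3.3 peaks of all 16 libraries in iPSCs, 3 peaks summing to 22.8, none within 1 kb of a start. Spi1 was 12.8 in D0 and 41.3 in iPSCs, and Myb had no peak in D0 and 24.1 in iPSCs. The fibroblasts of the 2 systems differed as well. MEF was higher than D0 at Fli1, Erg and Myb (4.69% of genes) and lower at Gata2 and Spi1 (43.7%), with Erg at 14.5 in D0 and 103 in MEF.

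Between the iPSCs and the embryonic stem cell line ESD3, the counts of members called were near the background. From iPSCs to ESD3 the median log2 change was -0.59 over the members and -0.93 over all genes with peaks in both. Gata2, Gfi1b, Spi1 and Lyl1 had 2-fold or more less H3.3 in ESD3 (35.9% of genes) and Tal1 more (6.23% of genes). Gata2 had 48.3 in iPSCs and 23.4 in ESD3, Spi1 had 41.3 and 11.6, and Lyl1 had 60.6 and 16.4. Tal1 had 1 peak of 0.5 kb in ESD3, at 6.94 from 15 tags, and none in iPSCs. The iPSC library held 81867 H3.3 peaks and ESD3 52506.

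H3K4me3 was present at members without H3.3. In D0 all 10 members had an H3K4me3 peak (70.2% of genes), and 9 had it within 1 kb of a start (66.6%), while 5 had an H3.3 peak there (46.2%). Gfi1b, Tal1, Erg, Lmo2 and Myb had H3K4me3 at a start without H3.3, a combination found at 22.9% of genes. Lmo2, without H3.3 in reprogramming, had H3K4me3 in all 7 libraries, with 177 in D0, 31.9 in D16S+ and 60.2 in iPSCs. Gfi1b had a single small peak in D0, 7.19 over 0.5 kb.

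From D0 to iPSCs 8 members had 2-fold or more less H3K4me3 (52.1% of genes), from 2.63-fold (2.19 to 3.17) at Tal1 to 8.86-fold (7.94 to 9.94) at Runx1. The median log2 change was -1.82 over the members and -1.38 over all genes with peaks in both, and 3 members were 2-fold lower after division by the latter, as under median-score scaling. Lyl1 was higher (4.06% of genes), at 20.9 in D0 and 83.6 in iPSCs. Its iPSC peak lay over the 3′ end and reached outside the window, and with scores shared out by the part inside, Lyl1 was no longer 2-fold higher. The lowest H3K4me3 sum of Runx1, Gata2, Tal1, Fli1, Erg, Lmo2 and Myb on the route was in D16S+, the library with the fewest H3K4me3 peaks (19633).

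**Figure D5:**
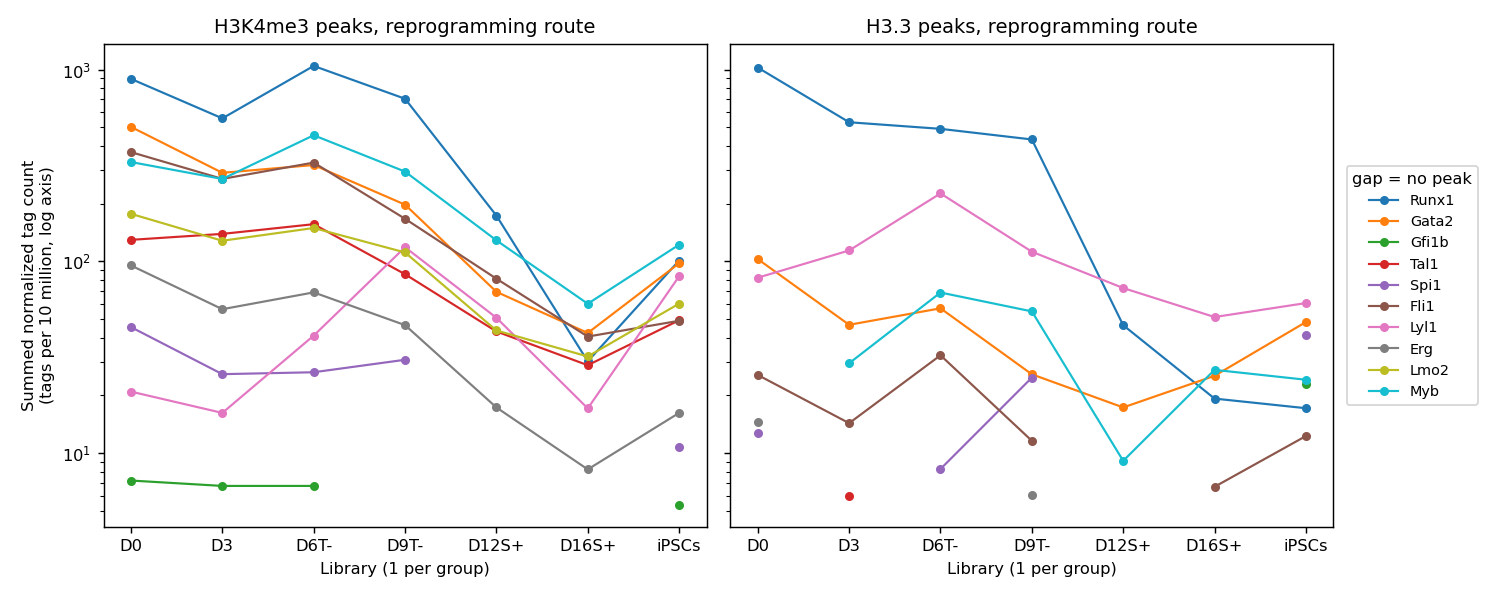
Summed H3K4me3 (left) and H3.3 (right) scores of the 10 genes along the successful route, in normalized tags per 10 M on a log axis, with 1 library per point and a gap where there was no peak. H3.3 at Runx1 goes from 1025 in D0 to 17.1 in iPSCs, and most H3K4me3 lines are lowest in D16S+.

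H3K36me3 was found at Runx1 in 6 of the 7 libraries. Its sum was 1808 over 76.0 kb for D0, 661 at D3, 297 for D6T- and 985 for D9T-, but 7.09 for D12S+ and 18.6 for D16S+, and iPSCs had no peak. The libraries differed in the same direction. H3K36me3 peaks held 31.3% of the tags in D0, but 1.07% in D12S+, 1.99% in D16S+ and 2.88% in iPSCs. From D0 to iPSCs 46.9% of genes were 2-fold lower, and the median log2 change of genes with peaks in both was -3.19. The part of this in the Runx1 values was not tested. Myb had 87.6 over 5 peaks in D9T- and 7.96 in D16S+, and Gata2 had 10.6 in D0 and 42.6 in iPSCs. Fli1, Lyl1 and Erg had values of 6.80 to 24.2 where they had a peak. Tal1, Lmo2, Spi1 and Gfi1b had none in any of the 7 libraries, in which 23.5% to 50.3% of genes had a peak.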

How the data were processed

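Of 46 ChIP-Seq samples of mouse cells, 30 had peak lists and were used; 16 inputs entered through the input tags that each peak carries. Per the study's methods, reads were mapped with STAR to mm9 with up to 2 mismatches and kept where they mapped to a single locus; the versions of STAR and HOMER are not stated. Peaks were called by the authors with HOMER findPeaks in histone style, library by library, without pooling. The deposited score is a signal, the normalized tag count, scaled by the authors to 10 M (mega) tags, not divided by peak length and without subtraction of input. The deposited fold over input is a ratio with a limit of 2 for H3.3 and 4 for H3K4me3 and H3K36me3, and the deposited p-value comes from a Poisson model against input. A list holds called peaks only, so a gene without one is not shown to lack the mark.

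Scores and covered kb of peaks overlapping each GENCODE vM1 gene ±1 kb were summed in Python 3.11.15 with NumPy 2.4.6 and SciPy 1.17.1; Spi1 was matched by its older symbol. A peak that overlaps several windows counts in full in each. Percentages over all genes are the background. With 1 library per group, a change is called at 2-fold and no test was run; the comparison of MEF with cKit- was added after the data were seen. Exact Poisson intervals (sums) and conditional binomial intervals (ratios) treat tags as independent, and since duplicate reads are not independent they cover counting error only. The step that sums peaks was tested on simulated lists. Each group is 1 library, so no replicates were averaged. All 10 members, Bmi1, and at most 4 genes of each list by largest score in a library were to be named. The members and lists were chosen with earlier results of these data known. Alternatives were equal numbers of top-scoring peaks, fold over input of 3, peak midpoint, prorated scores, no flanks, 1.5-fold and 3-fold, division of each library by its median score, and 500 bp around starts. The delivered Runx1 and Bmi1 are not stated clearly to be mouse or human.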

Additional observations from a re-analysis of the deposited data

Results flagged for a closer look

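Input tags, which carry no antibody signal, were dense in some peaks over coding exons of delivered factors. In D4 they reached 1.62 times the library median on exon 5 of Tal1, 1.35 times on exon 6 and 2.28 times on exon 7, 1.84 times on exon 6 of Lmo2 and 1.71 times on exon 9 of Runx1. In cKit- they reached 1.90 times on exon 5 of Tal1. Each lies above the 95th percentile of its library, which chose these peaks. Other coding-exon peaks of delivered factors did not pass it: D4 peaks on other coding exons of Runx1 had 0.996 to 1.28 times the median, exon 5 of Lmo2 1.25 times and exons 2 and 3 of Lmo2 1.09 times, those of Bmi1 1.12 times, and exon 6 of Lmo2 in cKit- 1.21 times. In MEF, before infection, the Runx1 exon 9 peak with coding bases had 0.845 times and the one without them 1.14 times, and Tal1 and Lmo2 had no peak. Dense input was also found away from exons. A MEF peak of Runx1 that overlaps no exon had 2.03 times, and the overlapping cKit- peak 1.64 times. The part of the delivered cDNA in these values was not tested.

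On the deposited scale, H3.3 at Myb moved in opposite directions from D4 in the sorted fractions, to 0.673 times in cKit+ and to 2.70 times in cKit-. The change in cKit+ was short of 2-fold. Under median-score scaling Myb was higher than in D4 in both fractions, so the opposite directions hold on the deposited scale only. With 1 library in each, the difference between the fractions was not tested.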

How the results depend on the processing

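Of the counts, medians and sums compared with their alternatives, 151 stayed within 1.5 times and 53 moved. No paired analysis was possible because each group had 1 library and no result came from a test. With a fold over input of 3 or more, members with a peak numbered 3 in MEF, 0 in cKit+ and 2 in cKit-, their median covered share was 0, 0 and 0 there and 9.92% in D4, the summed scores were 68.4, 0 and 10.7, 0 members were higher in cKit- than in D4, 0 in cKit+ and 1 in cKit- were higher than in MEF, and Erg was 4.42 times MEF in D4. With equal numbers of top-scoring peaks, 1 member was lower in D4 than in MEF, 2 were higher and 5 lower in cKit+ than in D4, 4 were higher in cKit- than in D4, 1 was higher and 2 lower in iPSCs than in D0, and the median covered share was 1.17% in MEF, 7.73% in D4 and 1.53% in cKit+. By peak midpoint 1 member was lower in D4 than in MEF. By 3-fold, 0 were higher in cKit- than in D4, 2 had less H3.3 and 5 less H3K4me3 in iPSCs than in D0. With shared-out scores 0 had more H3K4me3 in iPSCs. Within 500 bp of a start, 1 member had a peak in cKit+. Added after seeing the data, the sums without Runx1 were 285 in MEF, 1327 in D4 and 130.2 in cKit+, and without coding-exon peaks of the delivered factors 1 member was higher in cKit+ than in D4.

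Scaling moved most. With each library divided by its median score over genes with a peak in both, in D4 against MEF 2 members were higher and 2 lower, with Runx1 at 0.269, Spi1 at 0.650, Fli1 at 0.683 and Lyl1 at 0.817 times. In cKit+ against D4 5 were higher and 2 lower, with Runx1 at 2.23, Tal1 at 1.36, Spi1 at 4.28, Fli1 at 6.52, Lmo2 at 4.74 and Myb at 16.9 times. In cKit- against D4 6 were higher and 2 lower, with Runx1 at 1.52, Tal1 at 3.75, Spi1 at 12.2, Fli1 at 5.92, Erg at 2.89 and Lmo2 at 2.53 times. Against MEF, 5 were higher and 2 lower in cKit+. In iPSCs against D0, 2 had less H3.3, and 2 had more and 3 less H3K4me3. With scores divided instead by the median fold change of those genes, added after seeing the data, the same directions reversed. In D4 against MEF 2 were higher and 2 lower, with Runx1 at 0.315, Spi1 at 0.761, Fli1 at 0.800 and Lyl1 at 0.956 times. In cKit+ against D4 4 were higher and 3 lower, with Runx1 at 1.81, Tal1 at 1.10, Spi1 at 3.46, Fli1 at 5.28, Lmo2 at 3.83 and Myb at 13.7 times. In cKit- against D4 6 were higher and 2 lower, with Runx1 at 1.21, Tal1 at 2.99, Spi1 at 9.74, Fli1 at 4.72, Erg at 2.30 and Lmo2 at 2.02 times. In cKit+ against MEF 5 were higher and 2 lower, and in iPSCs against D0 2 had less H3.3 and 1 had more and 3 less H3K4me3. Low peak calling in the cKit libraries limits what a missing peak shows; the cause was not tested.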
